A study of Mus musculus with 8 samples.

Results

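The ribosome-bound mRNA of cholinergic neurons in uninjured mouse spinal cord was compared with what the same immunoprecipitation brings down from cord without the Cre driver. The comparison uses 4 of the 8 libraries of the series. They were chosen by sample title: the titles of animals 10 and 3 name the Chat driver, and those of animals 4 and 6 add the word Ctrl. All 4 mice were 8 weeks old, were entered as Rpl22 +/- on the strain background B6.CgxB6.129, and carried Gars+/+ alleles per the design text, as did the mice of the other 4 libraries. Those 4 came from mice with a unilateral sciatic nerve crush, 2 with Cre (animals 35 and 52, aged 18 and 9 weeks) and 2 without (animals 51 and 58, both 9 weeks).

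The genotype entries contradict the titles for 2 of the 4 uncrushed mice. Animal 3 is titled as carrying Cre and entered as Chat +/+, and animal 4 is titled Ctrl and entered as Chat +/-. Groups follow the titles throughout. The levels of Chat, Slc5a7, Chodl and Rspo2 followed the title in all 4 libraries. With the libraries grouped by the genotype entry instead, edgeR called 0 genes higher and 0 lower of 15208 tested, and 206 genes had an unadjusted p under 0.05. Counts and calls of named genes that moved without these 2 libraries are given below.

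In the RiboTag method, Cre switches the ribosomal protein gene Rpl22 to a version that carries an HA epitope, and an antibody to the epitope then pulls down the ribosomes of the Cre-expressing cells with the mRNA they hold. Choline acetyltransferase (Chat) makes the transmitter acetylcholine, so a Chat driver marks all cholinergic cells of the cord: the alpha and gamma motor neurons that drive skeletal muscle, the preganglionic neurons of the autonomic system, and a set of interneurons that synapse on motor neurons. Motor neurons are very large cells with long axons, and they are the cells lost in amyotrophic lateral sclerosis and spinal muscular atrophy. Libraries without Cre hold mRNA that sticks to beads or antibody without any epitope. In such bulk precipitates, a change in the number of tagged cells cannot be told apart from a change in the mRNA each cell holds.

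The libraries with Cre were sequenced to higher totals, and a larger part of their counts came from nuclear protein-coding genes. Total expected counts were 8215026 and 9609300 with Cre (animals 10 and 3) and 4903056 and 5203850 without (animals 4 and 6). Nuclear protein-coding genes took 64.8% and 76.2% of the counts with Cre and 25.7% and 35.8% without, and mitochondrial rRNA took 5.53% and 2.33% against 48.2% and 32.7%. Gm42418, a gene that overlaps an rRNA repeat and was chosen after its values were seen, took 22.95% and 17.57% with Cre and 5.76% and 4.85% without. The 95% Wilson intervals of these shares reach at most 0.044 percentage points to either side and cover counting error only. Levels are given as CPM, a gene's counts relative to the library's total after TMM scaling, which sets the totals so that most genes do not differ. Xist, from the X chromosome, had 81.1 CPM in animal 10 and 1119 CPM in animal 4, against 0.195 CPM in animal 3 and 5.34 CPM in animal 6, and the Y-linked Ddx3y was at 0, 0.78, 55.0 and 28.8 CPM in that order, so each group held 1 animal of each pattern. The pattern goes with the genotype entry, which is Chat +/- for animals 10 and 4 and Chat +/+ for animals 3 and 6. Grouping by the entry is thus also grouping by this pattern. On the CPM scale 3 counts, the limit that a count of 0 allows, differ by library. They correspond to 0.39, 0.292, 1.17 and 0.801 CPM in animals 10, 3, 4 and 6.

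Cholinergic transmitter mRNAs stood far above the background precipitate in both animals with Cre. Chat was at 97.7 and 126 CPM in animals 10 and 3 and at 4.29 and 4.81 CPM in animals 4 and 6. Slc5a7, which carries choline back into the terminal, was at 530 and 574 CPM with Cre and 31.2 and 28.8 CPM without. Slc10a4, a vesicle protein of cholinergic and monoaminergic neurons, was at 225 and 196 CPM against 6.24 and 8.81 CPM. In all 3 genes the pairs lay close together and far apart from the other pair. Their log2 differences (Cre minus no Cre) were 4.61 ± 0.30, 4.20 ± 0.30 and 4.78 ± 0.37. Values after ± are SE derived from the test, here and below. They are the absolute log2 difference over the square root of the test's F statistic, not a separate estimate of error. The adjusted p were 2.44e-05, 2.44e-05 and 3.05e-05 by edgeR's quasi-likelihood test with Benjamini-Hochberg adjustment over all 15208 genes. A gene was called where that adjusted p was under 0.05; across all genes tested 20.6% were called higher with Cre and 21.9% lower.

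The windows before the starts of 4 strongly enriched genes, the 3 above and the motor neuron marker Chodl, are shown so that their base content can be compared. Each is the 250 bases before the gene's RefSeq start on build GRCm38.p6, written 5′ to 3′ on the gene's own strand. Capitals mark matches to 6 short motifs searched on both strands: the homeodomain core TAATTA, the E-box CACGTG, the CAAT-box letters CCAAT, the TATA-box letters TATAAA, the GC-box letters GGGCGG and the ETS core CGGAAG. Overlapping matches were each counted. Chat lies on the minus strand (chr14:32465910-32466159), Slc5a7 on the minus strand (chr17:54299035-54299284), Chodl on the plus strand (chr16:78930698-78930947) and Slc10a4 on the plus strand (chr5:73006654-73006903).
Chat: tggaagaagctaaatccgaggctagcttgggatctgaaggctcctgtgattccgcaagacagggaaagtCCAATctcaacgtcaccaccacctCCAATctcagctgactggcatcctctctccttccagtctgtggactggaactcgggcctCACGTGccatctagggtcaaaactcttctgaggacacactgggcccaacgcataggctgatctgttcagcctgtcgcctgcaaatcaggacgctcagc
Slc5a7: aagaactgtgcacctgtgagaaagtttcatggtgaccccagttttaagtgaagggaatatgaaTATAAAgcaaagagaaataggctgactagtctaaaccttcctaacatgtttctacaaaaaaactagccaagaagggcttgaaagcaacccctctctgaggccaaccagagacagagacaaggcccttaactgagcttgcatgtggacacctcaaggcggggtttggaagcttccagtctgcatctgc
Chodl: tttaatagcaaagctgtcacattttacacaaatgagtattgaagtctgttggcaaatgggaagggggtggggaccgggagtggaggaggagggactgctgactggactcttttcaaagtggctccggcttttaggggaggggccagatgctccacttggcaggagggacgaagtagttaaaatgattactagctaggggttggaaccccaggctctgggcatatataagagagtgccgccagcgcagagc
Slc10a4: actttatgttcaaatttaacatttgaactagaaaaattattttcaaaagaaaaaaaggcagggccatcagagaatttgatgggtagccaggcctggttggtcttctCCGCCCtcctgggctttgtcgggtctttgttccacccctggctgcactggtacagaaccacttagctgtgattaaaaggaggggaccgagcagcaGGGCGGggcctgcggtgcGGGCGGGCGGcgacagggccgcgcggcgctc
The Chat window held the E-box letters in 1 place and the CAAT-box letters in 2. The Slc5a7 window held the exact letters TATAAA in 1 place and the Slc10a4 window the GC-box letters in 4, of which 2 overlap. The Chodl window held no exact match to any of the 6. Near its end, close to the gene's start, it held the similar letters tatataag, which the search did not count. The TATAAA match of Slc5a7 lay farther from that gene's start. Whether any of these letters act as a TATA box was not tested. GC content was 54.8% for Chat, 45.6% for Slc5a7, 52.0% for Chodl and 54.4% for Slc10a4, beside a median of 60.0% over the 8431 tested nuclear protein-coding genes with 1 window in the table. Of those 8431 windows 8.41% held the E-box letters, 36.9% those of the CAAT box, 6.24% those of the TATA box, 60.4% those of the GC box and 2.24% the homeodomain core. The ETS core was in 28.3% of 1909 windows of genes called higher, 17.8% of 1627 of genes called lower and 25.2% of all, while the GC-box letters were in 63.9%, 58.1% and 60.4%. These shares describe letters in the windows and carry no test.

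Of the 8 transmitter genes tested, 6 were higher with Cre, also with each of the 4 libraries left out in turn. Besides the 3 above these were Acly, the ATP citrate lyase that supplies acetyl-CoA, at 886 and 886 CPM with Cre and 164 and 123 CPM without (log2 2.63 ± 0.28). Acetylcholinesterase (Ache) was at 125 and 135 CPM against 29.2 and 34.2 CPM (log2 2.03 ± 0.25). Its membrane anchor Prima1, chosen after its values were seen, was at 19.4 and 20.0 CPM against 5.07 and 1.87 CPM (log2 2.57 ± 0.49). Each of the 3 had non-overlapping groups and an adjusted p (edgeR) of at most 0.00205. Colq, the collagen tail of the synaptic esterase, chosen after its values were seen, was not called (log2 -0.67). Slc44a1, a choline transporter of many cell types, was called lower at 33.2 and 36.9 CPM against 55.8 and 87.3 CPM (log2 -1.03 ± 0.26, adjusted p 0.00788), a call lost without animal 10, without animal 3 and without animal 6. The list's median log2 difference was 2.60, beside -0.03 over all genes tested. Slc18a3, the vesicular acetylcholine transporter, was not analysed here.

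**Figure D1:**
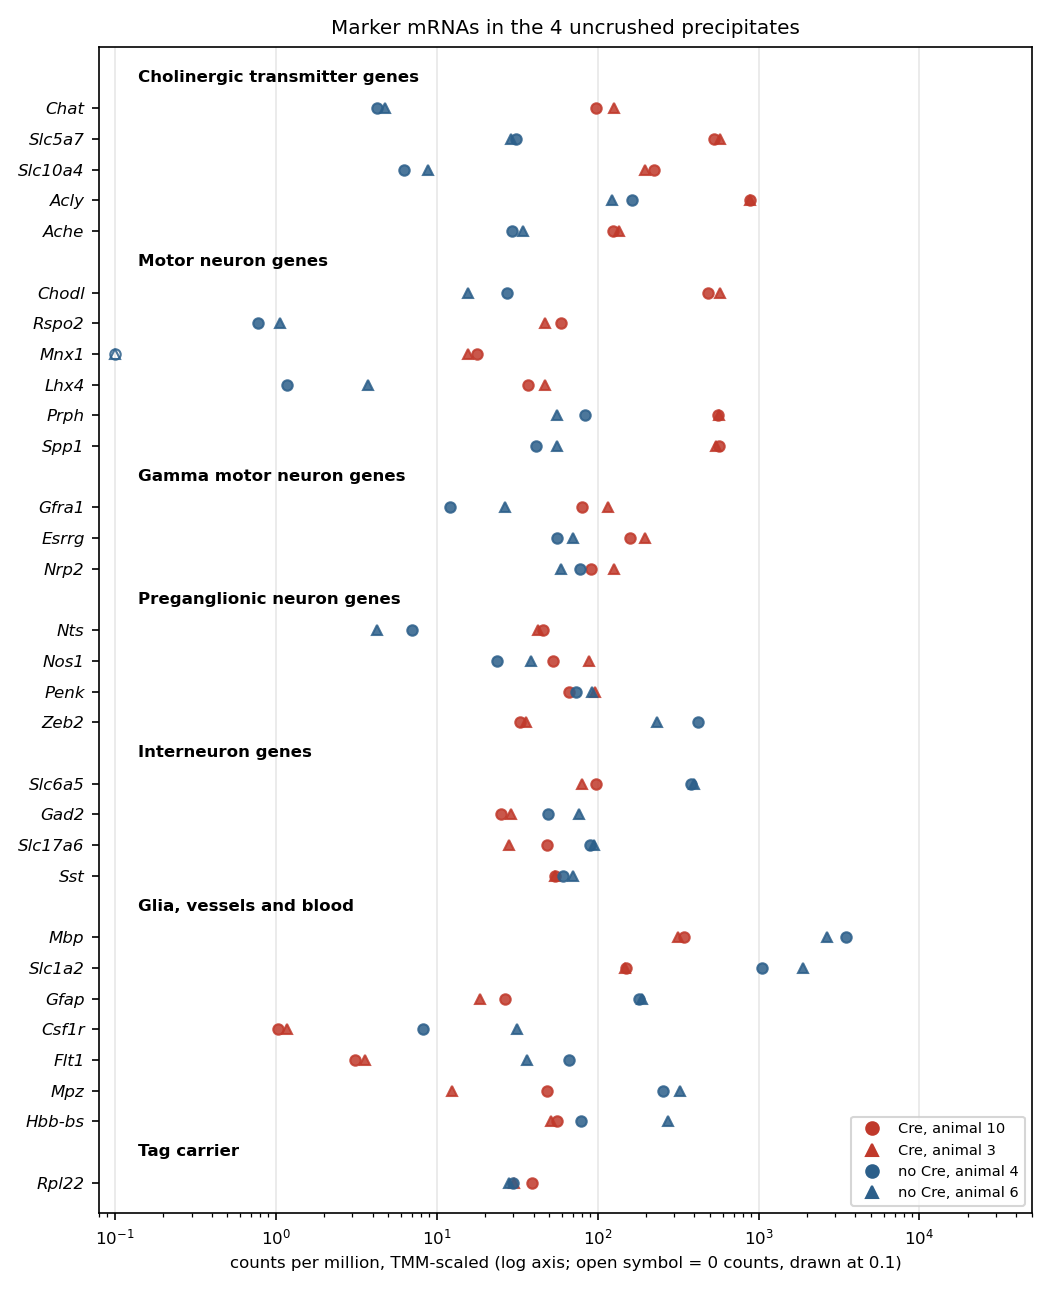
Levels of 30 marker mRNAs in the 4 uncrushed precipitates, in CPM on a log axis; red symbols are the animals with Cre and blue symbols those without, and open symbols are 0 counts. Transmitter and motor neuron genes lie to the right in both animals with Cre, glial, vascular and most interneuron genes to the left, and Rpl22 does not separate the groups.

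Somatic motor neuron markers had the highest list median of all 53 lists, 3.32 on the log2 scale. Of 22 tested, 18 were higher and 2 lower, and 17 of the 18 stayed higher with each library left out in turn. Chodl, a membrane lectin of fast alpha motor neurons, was at 486 and 574 CPM with Cre and at 27.3 and 15.8 CPM without (log2 4.64 ± 0.34). Rspo2, a secreted Wnt pathway agonist of motor neurons, was at 59.3 and 47.0 CPM against 0.78 and 1.07 CPM (log2 5.79 ± 0.39). Neither gene had overlapping groups. Mnx1, the homeobox factor that defines motor neurons, had 17.8 and 15.7 CPM with Cre and 0 counts in both libraries without, at least 34.9-fold higher when the 0 is set at 3 counts over the group. Other homeobox genes of the list did not all follow. Lhx4 was at 37.2 and 47.1 CPM against 1.17 and 3.74 CPM (log2 4.00 ± 0.46) and Isl2, chosen after its values were seen, at 7.55 and 9.15 CPM against 1.56 and 0.267 CPM (log2 3.33 ± 0.67). Isl1, also chosen after its values were seen, was not called, at 11.4 and 11.8 CPM against 10.1 and 2.94 CPM, so that animal 4 lay near the animals with Cre. The 2 lower members were Agrn, the organizer of the neuromuscular junction, at 23.3 and 28.0 CPM against 50.7 and 71.0 CPM, and the neurotrophin receptor Ngfr at 4.03 and 3.41 CPM against 22.2 and 12.6 CPM. Of these 2 no call was left without animal 10, and 1 was left without animal 3, 4 or 6.

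The lists for both sorts of motor neuron that innervate muscle had members called higher. Whether both sorts of cell were tagged was not tested. Among alpha motor neuron subtype markers 9 of 15 were higher and 3 lower (median 1.55). Spp1 (osteopontin), a marker of large alpha motor neurons, was at 567 and 546 CPM with Cre and 41.7 and 55.8 CPM without (log2 3.51 ± 0.31), and Mmp9, a metalloprotease of fast motor neurons chosen after its values were seen, at 32.7 and 31.2 CPM against 2.73 and 4.27 CPM (log2 3.15 ± 0.44). Sv2b, a vesicle protein, was at 388 and 454 CPM against 88.9 and 92.7 CPM (log2 2.21 ± 0.24). The slow motor neuron marker Sv2a went the other way, at 64.7 and 71.6 CPM against 117 and 135 CPM (log2 -0.89 ± 0.22). The others called lower were Cd44 (log2 -1.72) and Grm5 (log2 -1.41). Without animal 10 just 1 of these 3 lower calls was left, and Sv2a also lost its call without animal 3 or animal 6. Gamma motor neuron markers had 4 of 10 higher and 1 lower (median 0.90), and 5 were not called. Of the 4 higher, 3 stayed so with each library left out. Gfra1 is also among the somatic motor neuron markers above. Esrrg, a nuclear receptor of gamma motor neurons, was at 160 and 197 CPM against 55.8 and 70.8 CPM (log2 1.49 ± 0.25), and Gfra1, a receptor for GDNF, at 79.5 and 116 CPM against 12.1 and 26.4 CPM (log2 2.32 ± 0.35). Plch1 (log2 2.17) was also called higher, and Pard3b (log2 -1.87) was called lower. Pard3b was called neither without animal 3 nor without animal 4.

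Markers of the other cholinergic cells of the cord went in both directions. Over all genes tested 20.6% were called higher and 21.9% lower. Of 9 preganglionic markers tested 2 were higher and 3 lower, and the median of -0.02 turned to 0.66 when libraries were scaled by their size alone. Neurotensin (Nts) was at 45.8 and 42.8 CPM with Cre and 7.02 and 4.27 CPM without (log2 3.00 ± 0.32). Nos1, the neuronal nitric oxide synthase of preganglionic cells, was at 53.2 and 87.9 CPM against 23.8 and 38.7 CPM (log2 1.16 ± 0.33, adjusted p 0.0164), a call lost without animal 3 or animal 4. The lower members were Zeb2 (32.9 and 35.7 CPM against 418 and 233 CPM, log2 -3.24), Fbn2 (log2 -2.24) and Rxfp1 (log2 -1.94), of which 1 was left without animal 10 or animal 4. Of 8 cholinergic interneuron markers tested 1 was called higher, which held in none of the 4 runs with a library left out, and 3 were called lower (median -1.15). Slc17a6 and Ebf2, which are also genes of other interneurons, were among the lower 3, and both lost their calls without animal 3. Ebf2 also lost its call without animal 10 or animal 4, and 1 lower call was left without animal 3.

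Across the transcriptome 3137 genes were higher with Cre and 3331 lower. The log2 difference ran from -3.33 at the 5th percentile of genes to 2.08 at the 95th. Among the called genes 184 were higher by at least 8-fold and 932 lower by at least 8-fold. Tested against a 2-fold change rather than against 0, 967 genes (6.36%) were higher and 1600 (10.5%) lower. In 5503 genes (36.2%) both animals with Cre lay above both without, and in 5320 (35%) both lay below. The counts rested most on animal 3: without it 2009 genes were higher and 1793 lower, and 400 and 553 past 2-fold. Without animal 10 the counts were 2244 and 2211, and 578 and 1018 past 2-fold, and without animal 4 the lower genes past 2-fold numbered 1054. Leaving out both animals 3 and 4 leaves 1 uncrushed library a group and takes the spread from the crushed groups. Fewer genes were then called in both directions. That run sets Cre animal 10 against no-Cre animal 6, which differ in the Xist and Ddx3y pattern. Cre cannot be told apart from that pattern there.

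The balance of higher and lower calls depended on the scaling. Scaling by library size alone moved the median of all genes by 0.68 on the log2 scale and gave 4753 higher and 1463 lower (76.5% of calls higher, against 48.5%). Scaling by the total without mitochondrial transcripts moved it by -0.33 and gave 2045 higher and 4234 lower (32.6% higher), and upper-quartile factors moved it by -0.17 and gave 2577 and 3787 (40.5% higher). Of the 3137 genes called higher 2045 were called higher under all 5 scalings, and of the 3331 called lower 1462, with 0 called in the opposite direction. The spread between animals was wider without Cre: over 7834 genes with at least 10 CPM the median absolute log2 ratio between the 2 animals was 0.391 without Cre and 0.203 with Cre.

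**Figure D2:**
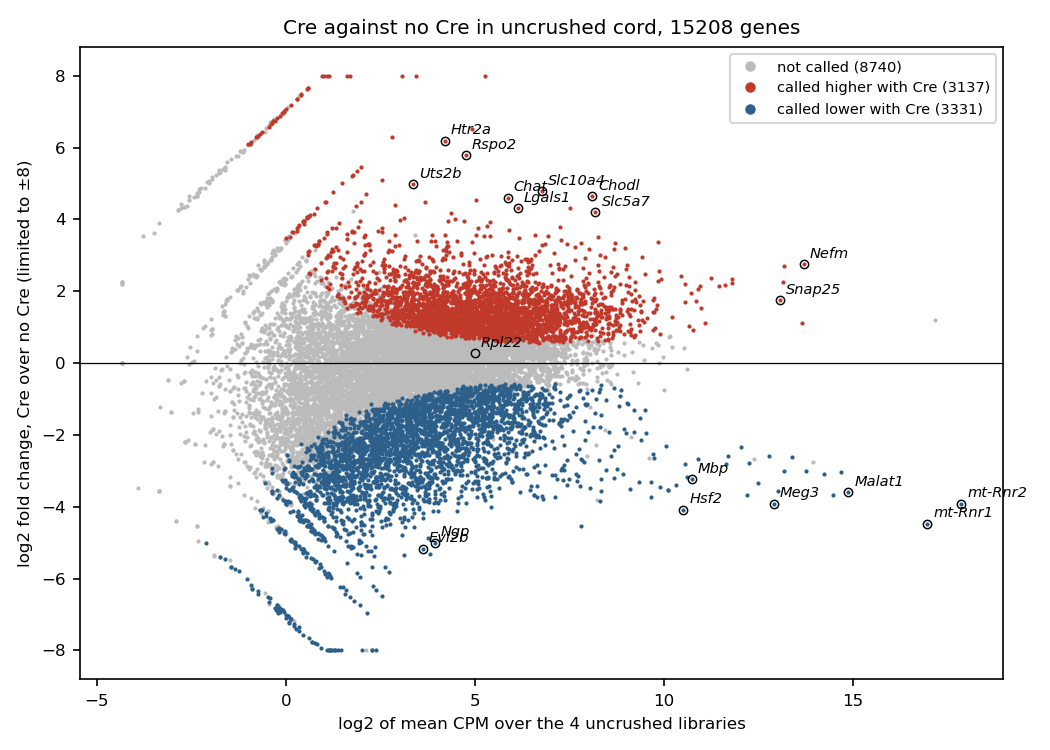
Log2 difference of each of the 15208 genes tested (Cre over no Cre, vertical axis, limited to ±8) against the log2 of its mean CPM over the 4 uncrushed libraries; red marks the 3137 genes called higher and blue the 3331 called lower. The diagonal streaks at the left are genes with few or 0 counts in a group, whose fitted difference depends on the prior count.

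The genes with the largest differences among those with at least 10 CPM on average included receptors, peptides and a transcription factor on the higher side. Htr2a, a serotonin receptor that raises motor neuron excitability, was at 26.5 and 45.8 CPM with Cre and 0.78 and 0.267 CPM without. It had 674 counts against 3, a ratio of 78.9 with an exact 95% interval of 26.9 to 384; this and the other intervals of count ratios pool the reads of both animals and cover counting error only, not the spread between animals. The urotensin peptides Uts2b and Uts2 were at 19.6 and 20.4 CPM against 0 and 1.07 CPM, and at 75.6 and 49.8 CPM against 5.46 and 0.534 CPM. The groups of these genes were wide apart, with log2 differences of 4.97 ± 0.62 for Uts2b and 4.55 ± 0.66 for Uts2. The vitamin D receptor Vdr was at 23.4 and 26.3 CPM against 0.39 and 1.60 CPM (log2 4.49 ± 0.47). Arhgap36 was at 320 and 375 CPM against 22.2 and 13.1 CPM (log2 4.32 ± 0.36), and the galactose-binding lectin Lgals1 at 136 and 131 CPM against 7.80 and 5.88 CPM (log2 4.31 ± 0.33). Cartpt, a neuropeptide precursor, was at 38.8 and 39.3 CPM against 0.78 and 3.21 CPM (log2 4.17 ± 0.58). Lypd6, a modulator of nicotinic receptors, and the lectin Layn, with log2 3.95 each, complete the 15 together with the genes named above. All 15 kept their call with each library left out in turn and under each scaling tried.

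The 15 largest differences on the lower side included genes of glia, blood and vessels and both mitochondrial rRNAs. Evi2b, a membrane protein of blood cells, was at 1.43 and 0 CPM with Cre and 26.1 and 21.6 CPM without (log2 -5.16 ± 0.95), and Ngp, a neutrophil granule protein, at 1.43 and 0.487 CPM against 25.7 and 33.7 CPM (log2 -5.00 ± 0.58). Opalin, of myelinating oligodendrocytes, was at 1.69 and 0.39 CPM against 11.3 and 26.7 CPM (log2 -4.28 ± 0.61). In each of these the animals with Cre lay far below both others. Fabp7, of astrocytes and their precursors, was at 1.95 and 1.56 CPM against 30.4 and 30.7 CPM (log2 -4.12 ± 0.35). Csf1r, the growth factor receptor of microglia, was at 1.04 and 1.17 CPM against 8.19 and 31.5 CPM, so that the animals without Cre differed from each other by more than 3-fold. Notch3, of vascular mural cells, was at 1.43 and 1.75 CPM against 42.1 and 14.4 CPM and Cd74, of antigen-presenting cells, at 1.43 and 0.876 CPM against 25.7 and 13.4 CPM. Myoc (log2 -4.56), Spaca6 (log2 -4.55), Amy1 (log2 -4.17), Hsf2 (log2 -4.08) and Zfp36l1 (log2 -4.02) were further nuclear genes of the 15. The mitochondrial rRNAs mt-Rnr1 and mt-Rnr2 had log2 differences of -4.47 and -3.92 and lost their calls without both animals 3 and 4.

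Genes absent from a group gave bounds only. In both libraries without Cre 107 tested genes had 0 counts, of which 36 were called, and in both libraries with Cre 96 had 0 counts, of which 65 were called. Besides Mnx1, the 0-count genes without Cre included Prr32 at 6.64 and 5.55 CPM with Cre (at least 12.6-fold higher) and Spp2 at 5.20 and 3.31 CPM (at least 8.67-fold higher). With Cre, Gvin1, an interferon-inducible GTPase, had 0 counts against 10.5 and 10.4 CPM (at least 62.6-fold lower), and the gut peptide receptor Glp2r 0 counts against 2.73 and 3.74 CPM (at least 19.9-fold lower). The call held in these 4 genes with each library left out.

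Many of the gene lists lost calls where animals 3 and 4 were both left out. This sets animal 10 against animal 6, which has the other Xist and Ddx3y pattern. Higher calls went from 11 to 7 in neuron-wide genes, from 16 to 9 in vesicle genes, from 15 to 7 in potassium channels and from 11 to 5 in sodium and calcium channels. They went from 4 to 1 in glutamate receptors, from 3 to 1 in acetylcholine receptors, from 9 to 4 in axon guidance genes and from 3 to 1 in perineuronal net genes. In metabolism and protein synthesis they went from 11 to 6 in glycolysis, from 13 to 6 in cholesterol synthesis, from 22 to 12 in mitochondrial ribosomal proteins, from 24 to 10 in translation factors, from 8 to 5 in chaperones of the endoplasmic reticulum and from 7 to 3 in lysosomal genes. Disease genes went from 23 to 13. Lower calls went from 9 to 5 in both inhibitory and excitatory interneuron markers, from 10 to 6 in blood markers, from 12 to 7 in splicing genes, from 9 to 3 in Hox genes, from 5 to 2 in vesicle genes and from 5 to 2 in axon injury genes. Of the genes named below, Snap25, Gria3, Grin1, Cplx2 and Aldoc kept their calls with each library left out in turn and lost them without both.

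**Figure D3:**
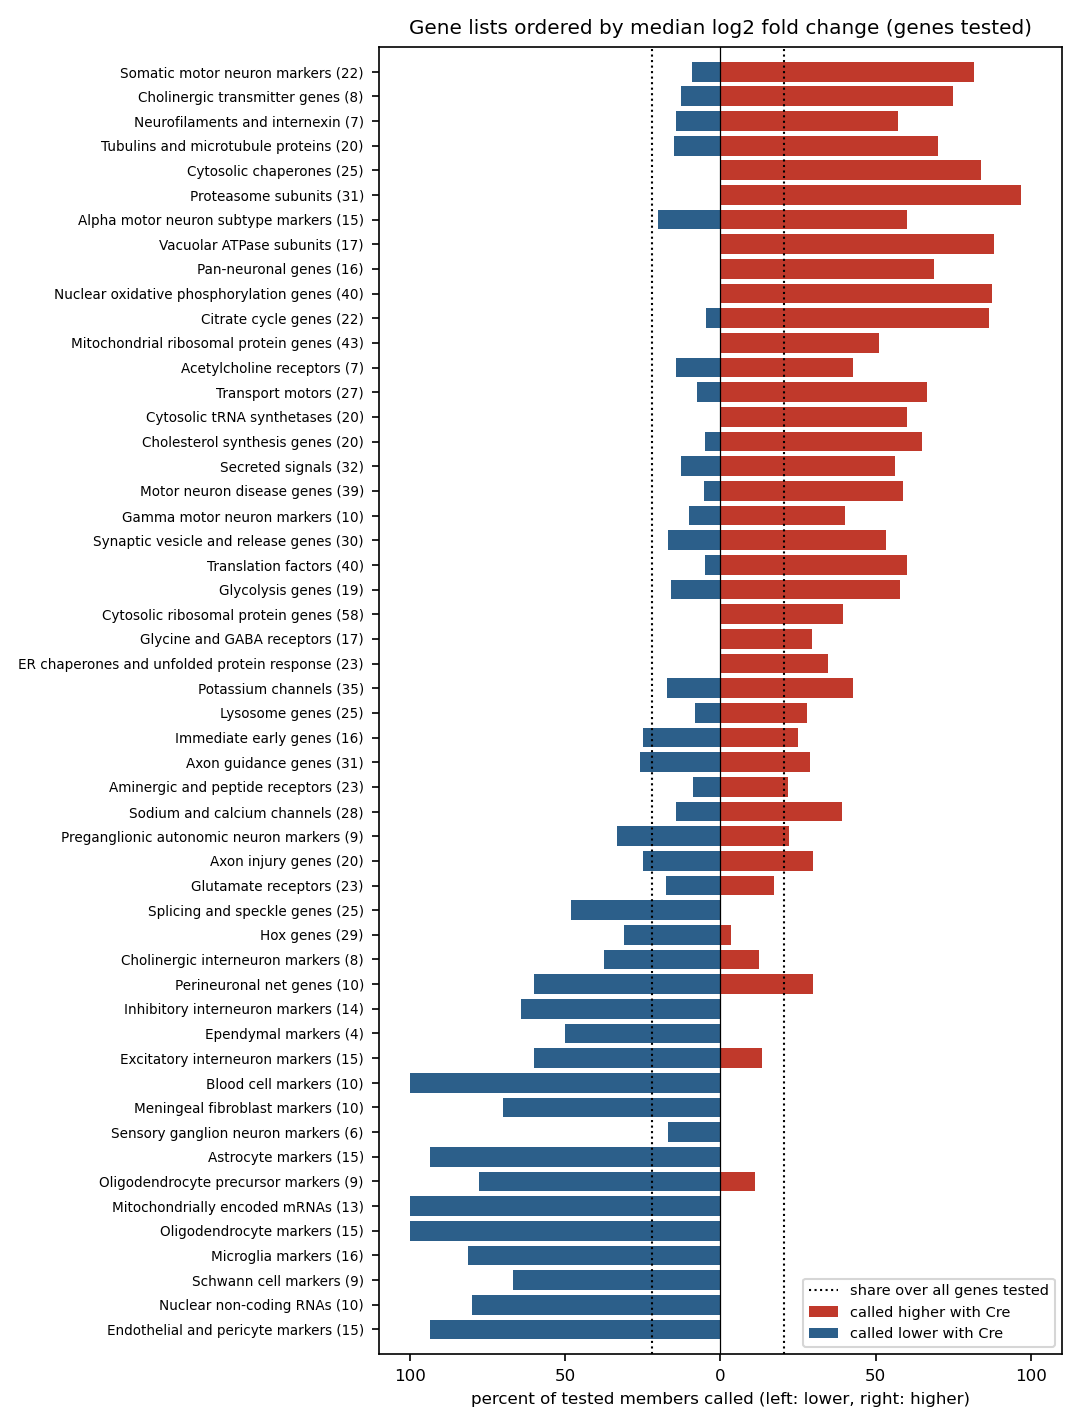
Share of the tested members of 52 gene lists (all but the sex-linked genes) called higher with Cre (red, to the right) or lower (blue, to the left), ordered by the list's median log2 difference, with the number tested in brackets. Dotted lines mark the share over all genes tested, 20.6% higher and 21.9% lower.

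Ion channels were enriched in part. The shares to set beside their counts are 20.6% called higher and 21.9% lower over all genes tested. Of 35 potassium channel genes 15 were higher and 6 lower (median 0.63), and 11 of the 15 stayed higher with each library left out. The delayed-rectifier modifier Kcng4, chosen after its values were seen as were the other channels of this paragraph except Scn4b and Kcnj10, was at 209 and 238 CPM with Cre and 13.6 and 24.6 CPM without (log2 3.52 ± 0.33). The inward rectifier Kcnj14 was at 188 and 154 CPM against 20.3 and 22.2 CPM (log2 3.00 ± 0.26). The acid-sensitive leak channels Kcnk3 and Kcnk9, which set the resting potential of motor neurons, had log2 differences of 2.90 ± 0.30 and 2.69 ± 0.24, with Kcnk9 at 102 and 102 CPM against 16.4 and 15.2 CPM. Glial and interneuron channels were among the lower 6, such as the astrocyte channel Kcnj10 at 40.3 and 37.5 CPM against 324 and 433 CPM (log2 -3.28 ± 0.27) and Kcnh7 at 23.5 and 26.3 CPM against 95.9 and 192 CPM (log2 -2.53 ± 0.35). The count of lower potassium channels was 3 without animal 10, 4 without animal 3 and 4 without animal 6. For sodium and calcium channels, 11 of 28 were higher and 4 lower, and the median of 0.17 turned to -0.16 under scaling without mitochondrial transcripts. The calcium channel subunit Cacna2d3 was at 95.6 and 116 CPM against 13.3 and 21.6 CPM (log2 2.58 ± 0.27), and the resurgent-current subunit Scn4b at 324 and 265 CPM against 152 and 103 CPM (log2 1.21 ± 0.28). The 4 lower members, Scn2a, Cacna1b, Cacna1e and Cacna1i, were left at 1 called without animal 10, 2 without animal 3 and 0 without animal 6.

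Receptors for glycine, GABA and glutamate carry the inputs to motor neurons. Of 17 glycine and GABA receptor genes 5 were higher and 0 lower (median 0.69), beside 20.6% and 21.9% over all genes tested. Among the 5 was Glrb at 297 and 289 CPM with Cre and 76.4 and 94.0 CPM without (log2 1.78 ± 0.24). Glra1 (log2 1.22), the scaffold Gphn (log2 1.31) and the chloride exporter Slc12a5 (log2 1.15) were also higher. All 5 stayed higher with each library left out, the list's count rose to 8 without animal 6, and Glra1, Gphn and Slc12a5 were lost without both animals 3 and 4. Glutamate receptors had 4 of 23 higher and 4 lower, beside 20.6% and 21.9% over all genes tested. Their median of -0.16 turned to 0.51 under scaling by library size alone. Grin3b, a subunit that lowers calcium entry through NMDA receptors, was at 13.3 and 14.2 CPM against 0.39 and 0 CPM, 248 counts against 1, a ratio of 87.1 with an exact 95% interval of 15.5 to 3455 (counting error only). The other higher ones were Gria3 (log2 1.15), Gria4 (log2 1.08) and Grin1 (log2 0.99), of which Gria4 was not called without animal 3. The lower ones were Grik3 at 6.64 and 6.72 CPM against 35.5 and 44.6 CPM (log2 -2.59 ± 0.28), Gria1 (log2 -0.79), Grik2 (log2 -1.08) and Grm5. Their number fell to 2 without animal 10, without animal 3 or without animal 6.

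Among acetylcholine receptors, the muscarinic Chrm2, which sits at the C-bouton synapse on motor neurons, was at 99.1 and 144 CPM with Cre and 15.2 and 23.0 CPM without (log2 2.65 ± 0.28). The nicotinic Chrnb2 (log2 0.80) and Chrna7 (log2 1.32) were also called higher, and 3 of the 7 tested were not called. Chrna4 (log2 -1.49) was called lower, a call lost under scaling by library size alone. Chrnb2 lost its call without animal 10, 3 or 6 and Chrna7 without animal 3, 4 or 6, so that without animal 3 just Chrm2 was left on the higher side. Of 23 aminergic and peptide receptors 5 were higher and 2 lower, beside 20.6% and 21.9% over all genes tested. Their median of 0.21 turned to -0.12 under scaling without mitochondrial transcripts. The 5 higher ones kept their calls with each library left out. Besides Htr2a these were the thyrotropin-releasing hormone receptor Trhr at 34.1 and 34.1 CPM against 2.73 and 4.81 CPM (log2 3.13 ± 0.40), the VIP receptor Vipr2 at 35.3 and 40.1 CPM against 3.90 and 5.61 CPM (log2 2.96 ± 0.31), the substance P receptor Tacr1 at 46.4 and 56.7 CPM against 7.80 and 15.0 CPM (log2 2.15 ± 0.31) and the noradrenaline receptor Adra1a (log2 1.63 ± 0.32). The serotonin receptors Htr1a (log2 -1.60) and Htr2b were the 2 called lower, Htr2b with 3 counts against 16, a ratio of 0.0659 with an exact 95% interval of 0.0123 to 0.230 (counting error only), and of the 2 calls 0 were left without animal 3 and 1 without animal 10 or animal 6. Htr2c, at 32.3 and 27.0 CPM against 36.3 and 38.7 CPM, was not called.

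Of 32 genes listed as secreted signals 18 were higher and 4 lower (median 1.04), and 16 of the 18 stayed higher with each library left out. The list also holds Fgf12, Fgf13 and Fgf14, members of the growth factor family that are not secreted. Fgf1, a growth factor without a signal peptide, was at 788 and 1032 CPM with Cre and 77.6 and 118 CPM without (log2 3.21 ± 0.32). The peptide precursor Calca (CGRP) was at 353 and 212 CPM against 23.4 and 17.9 CPM (log2 3.78 ± 0.46). Both had non-overlapping groups, as had the following genes, which were chosen after their values were seen. Neuregulin 1 (Nrg1), which acts on Schwann cells and muscle spindles, was at 236 and 277 CPM against 39.0 and 42.7 CPM (log2 2.65 ± 0.23). The repulsive cue Sema3a was at 81.3 and 101 CPM against 15.6 and 8.28 CPM (log2 2.97 ± 0.32). Chromogranin A (Chga), a core protein of dense-core vesicles, was at 254 and 257 CPM against 42.9 and 41.1 CPM (log2 2.60 ± 0.29), and the secreted neuropeptide precursor Vgf had a log2 difference of 2.51 ± 0.37 with non-overlapping groups. The 4 lower were Cxcl12 at 1.82 and 1.85 CPM against 26.5 and 24.6 CPM (log2 -3.78 ± 0.35), Igf1 (log2 -1.97), Vegfa (log2 -0.88) and Agrn, and without animal 10 Cxcl12 was the 1 left. Vegfa also lost its call without each of the others, Igf1 without animal 4 and Agrn without animal 6.

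Of 31 axon guidance genes 9 were higher and 8 lower (median 0.44), beside 20.6% higher and 21.9% lower over all genes tested. Fewer were higher without animal 3. Netrin 1 (Ntn1), a floor plate and glial cue, was at 0.13 and 0.292 CPM with Cre and 10.5 and 9.08 CPM without (log2 -5.38 ± 0.63), and the semaphorin receptor Plxnb1 at 4.16 and 5.94 CPM against 67.8 and 76.1 CPM (log2 -3.82 ± 0.33). Both were chosen after their values were seen. Of 10 perineuronal net genes, which make the matrix coat around large neurons, 3 were higher and 6 lower (median -1.38). The link protein Hapln4 was at 285 and 343 CPM against 55.0 and 62.5 CPM (log2 2.42 ± 0.23), while the chondroitin sulfate core proteins went both ways: versican (Vcan, chosen after its values were seen) at 4.81 and 6.62 CPM against 60.8 and 66.8 CPM (log2 -3.47 ± 0.40), Bcan at 18.0 and 17.3 CPM against 67.8 and 51.8 CPM (log2 -1.76 ± 0.26) and Acan at 19.6 and 21.6 CPM against 5.07 and 10.7 CPM (log2 1.35 ± 0.41). Acan and Tnr (log2 1.16) were the other 2 called higher. Acan lost its call without animal 10, and the higher count was 1 without animal 3 or animal 4. The lower count was 4 without animal 10 or animal 6.

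The scaffold of the axon was strongly enriched. Of 7 neurofilament and related genes 4 were higher, in each left-out run too: Nefm at 23414 and 22915 CPM with Cre and 4545 and 2304 CPM without (log2 2.76 ± 0.42), Nefl at 14260 and 18035 CPM against 2819 and 2191 CPM (log2 2.69 ± 0.36), Nefh at 5276 and 6563 CPM against 1474 and 876 CPM (log2 2.33 ± 0.37), and Prph, the peripheral neuron filament, at 557 and 564 CPM against 83.8 and 56.1 CPM (log2 3.01 ± 0.44). Vimentin (Vim), the filament of glia and vessels, was the 1 lower member, at 7.03 and 6.43 CPM against 72.1 and 48.1 CPM (log2 -3.15 ± 0.39). Tubulins and microtubule proteins had 14 of 20 higher (13 in each left-out run) and 3 lower (median 2.12). Tuba1a was at 2456 and 2467 CPM against 546 and 516 CPM (log2 2.21 ± 0.30), and Tubb3 and Tubb4b, both chosen after their values were seen, had log2 differences of 2.68 ± 0.27 and 2.74 ± 0.26. The lower 3 were Stmn4 (log2 -1.49), Dcx (log2 -1.73) and Tubb2b (log2 -1.35), genes of immature neurons or glia among others. They were left at 1 called without animal 10, 0 without animal 3 and 1 without animal 4.

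Transport and release machinery was enriched with it. Of 27 motor genes 18 were higher and 2 lower (median 1.08), 13 of the 18 in each left-out run. The dynein light intermediate chain Dync1li1 was at 94.7 and 115 CPM with Cre and 12.5 and 14.7 CPM without (log2 2.94 ± 0.27) and the kinesin light chain Klc2 at 524 and 501 CPM against 96.3 and 133 CPM (log2 2.16 ± 0.30), both chosen after their values were seen. The kinesin heavy chain Kif5c was at 1249 and 1474 CPM against 496 and 399 CPM (log2 1.61 ± 0.25), whereas Kif1a, at 1260 and 1481 CPM against 1089 and 929 CPM, was not called. The 2 lower were Kif1c (log2 -2.05) and Kif21b (log2 -1.48), and Kif21b lost its call under scaling by library size alone. Synaptic vesicle and release genes had 16 of 30 higher and 5 lower (median 0.83). Vamp1, the vesicle SNARE of motor terminals, was at 2396 and 2306 CPM against 482 and 393 CPM (log2 2.42 ± 0.35), and the fusion clamp Cplx1 at 1331 and 1302 CPM against 355 and 393 CPM (log2 1.82 ± 0.33). Its paralog Cplx2 was called lower at 63.9 and 70.8 CPM against 216 and 131 CPM (log2 -1.36 ± 0.29). The other lower ones were Unc13c (log2 -2.53), Syn3 (log2 -1.37), Sv2a and Stx1a (log2 -1.78). Of these 5 calls 3 were left without animal 10, animal 3 or animal 6, and 1 under scaling by library size alone. The proton pump that fills vesicles and acidifies lysosomes stood out: of 17 vacuolar ATPase subunit genes 15 were higher and 0 lower (median 1.53), 13 of them in each left-out run and 10 without both animals 3 and 4. Atp6v1h, chosen after its values were seen, was at 136 and 118 CPM against 32.0 and 25.4 CPM (log2 2.16 ± 0.24), Atp6v0c at 460 and 463 CPM against 105 and 117 CPM (log2 2.05 ± 0.32) and Atp6v1a at 638 and 726 CPM against 215 and 266 CPM (log2 1.50 ± 0.24). Lysosomal genes as a whole had 7 of 25 higher and 2 lower, among them Npc1, beside 20.6% and 21.9% over all genes tested. A lower call was lost without animal 10, 3 or 4, and 0 lower calls were left under scaling by library size alone. The higher count fell without animal 10, 3 or 4 and rose without animal 6.

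Nuclear and mitochondrial genes for respiration went opposite ways. Of 40 nuclear genes of oxidative phosphorylation 35 were higher and 0 lower (median 1.35), and all 13 mitochondrially encoded mRNAs were lower (median -3.08). Cox4i1, a nuclear subunit of cytochrome oxidase, was at 485 and 424 CPM with Cre and 136 and 130 CPM without (log2 1.78 ± 0.31), while mt-Co1, a mitochondrial subunit of the same enzyme, was at 4025 and 2084 CPM against 29528 and 19608 CPM (log2 -3.01 ± 0.43). Mitochondrial mRNA is translated inside the organelle by its own ribosomes, which do not contain Rpl22. Of the 35 higher nuclear genes 20 were called in each left-out run, with 22 higher without animal 10, 23 without animal 6 and 13 without both animals 3 and 4, while the mitochondrial count was 13 with each library left out. The citrate cycle was as uniform, with 19 of 22 higher (18 in each left-out run) and Suclg2 the 1 lower (log2 -2.81 ± 0.44). Its Mdh1 was at 980 and 896 CPM against 309 and 271 CPM (log2 1.69 ± 0.29) and its Mdh2 at 420 and 472 CPM against 97.9 and 142 CPM (log2 1.89 ± 0.27). Suclg2, at 1.56 and 1.66 CPM against 10.9 and 11.8 CPM, makes the GTP-forming form of succinyl-CoA ligase. Glycolysis had 11 of 19 higher and 3 lower (median 0.75). The higher included Pkm at 1083 and 1076 CPM against 312 and 335 CPM (log2 1.74 ± 0.25). Also higher was the neuronal enolase Eno2 at 786 and 971 CPM against 228 and 298 CPM (log2 1.74 ± 0.27). The lower were Hk2 (log2 -3.76), the glucose transporter Slc2a1 (log2 -1.43) and the astrocytic aldolase Aldoc (log2 -1.04). Slc2a1 and Aldoc lost their calls under scaling by library size alone.

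Most proteasome subunits and cytosolic chaperones were higher with Cre. Of 31 proteasome subunit genes 30 were higher and 0 lower (median 1.56), between 27 and 29 with a library left out and 25 without both animals 3 and 4. Psmb2, chosen after its values were seen, was at 98.9 and 108 CPM with Cre and 19.1 and 26.4 CPM without (log2 2.17 ± 0.35), and Psmd2 at 211 and 172 CPM against 75.3 and 64.1 CPM (log2 1.46 ± 0.23). Psmc2, at 117 and 103 CPM against 140 and 112 CPM, was the 1 member not called. Cytosolic chaperones had 21 of 25 higher and 0 lower (median 1.85), 18 in each left-out run. Hspa8, which folds new proteins and uncoats clathrin, was at 3836 and 4297 CPM against 748 and 842 CPM (log2 2.35 ± 0.28) and Hsp90aa1 at 3061 and 3142 CPM against 867 and 633 CPM (log2 2.05 ± 0.32). The small heat shock system was higher still, in genes chosen after their values were seen. Bag3, which hands misfolded proteins to autophagy, was at 282 and 281 CPM against 24.2 and 27.8 CPM (log2 3.43 ± 0.26), its partner Hspb8 at 158 and 196 CPM against 15.6 and 14.4 CPM (log2 3.56 ± 0.27) and Hspb1 at 132 and 131 CPM against 18.7 and 5.88 CPM (log2 3.48 ± 0.44). Chaperones of the endoplasmic reticulum had 8 of 23 higher and 0 lower (median 0.64), with Hspa5 at 202 and 267 CPM against 69.4 and 87.3 CPM (log2 1.58 ± 0.24) and Hsp90b1, at 370 and 421 CPM against 290 and 249 CPM, not called.

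Translation genes were moderately enriched, and less firmly. Of 58 cytosolic ribosomal protein genes 23 were higher and 0 lower (median 0.71), and 0 passed the test against a 2-fold change. Scaled by library size alone 43 were higher (median 1.41), and without mitochondrial transcripts 8 (median 0.38). Their count was 5 without animal 10, 11 without animal 3, 17 without animal 4, 13 without animal 6 and 3 without both animals 3 and 4. Rpl22, the gene that carries the epitope, was at 39.3 and 30.1 CPM with Cre and 29.6 and 28.0 CPM without and was not called (log2 0.27 ± 0.28). Mitochondrial ribosomal proteins had 22 of 43 higher (median 1.16), 11 without animal 10 and 14 without animal 3. Translation factors had 24 of 40 higher and 2 lower (median 0.80), with 16 higher without animal 10 and 14 without animal 3. The initiation factor subunit Eif2b1, chosen after its values were seen, was at 9.63 and 11.8 CPM against 1.56 and 1.34 CPM (log2 2.89 ± 0.45), and the 2 lower were Eef1a1 (log2 -1.17) and Eif3a (log2 -1.13), of which 1 was left without animal 10 or animal 4 and 0 without animal 3. Cytosolic tRNA synthetases had 12 of 20 higher and 0 lower (median 1.07), 10 in each left-out run. Nars was at 640 and 650 CPM against 159 and 158 CPM (log2 2.02 ± 0.27) and Aars at 194 and 206 CPM against 60.4 and 79.6 CPM (log2 1.51 ± 0.23). Gars, the glycyl-tRNA synthetase gene mutated in a form of Charcot-Marie-Tooth disease, was at 123 and 129 CPM against 34.3 and 60.1 CPM (log2 1.40 ± 0.32, adjusted p 0.00494 by edgeR), a call lost without both animals 3 and 4. Cholesterol synthesis had 13 of 20 higher and 1 lower (median 1.07), and 8 higher without animal 10, animal 3 or animal 4; Fdft1 was at 153 and 147 CPM against 57.3 and 54.0 CPM (log2 1.43 ± 0.28), and Lss (log2 -1.57) was the 1 lower, a call lost without animal 10 or animal 6.

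**Figure D4:**
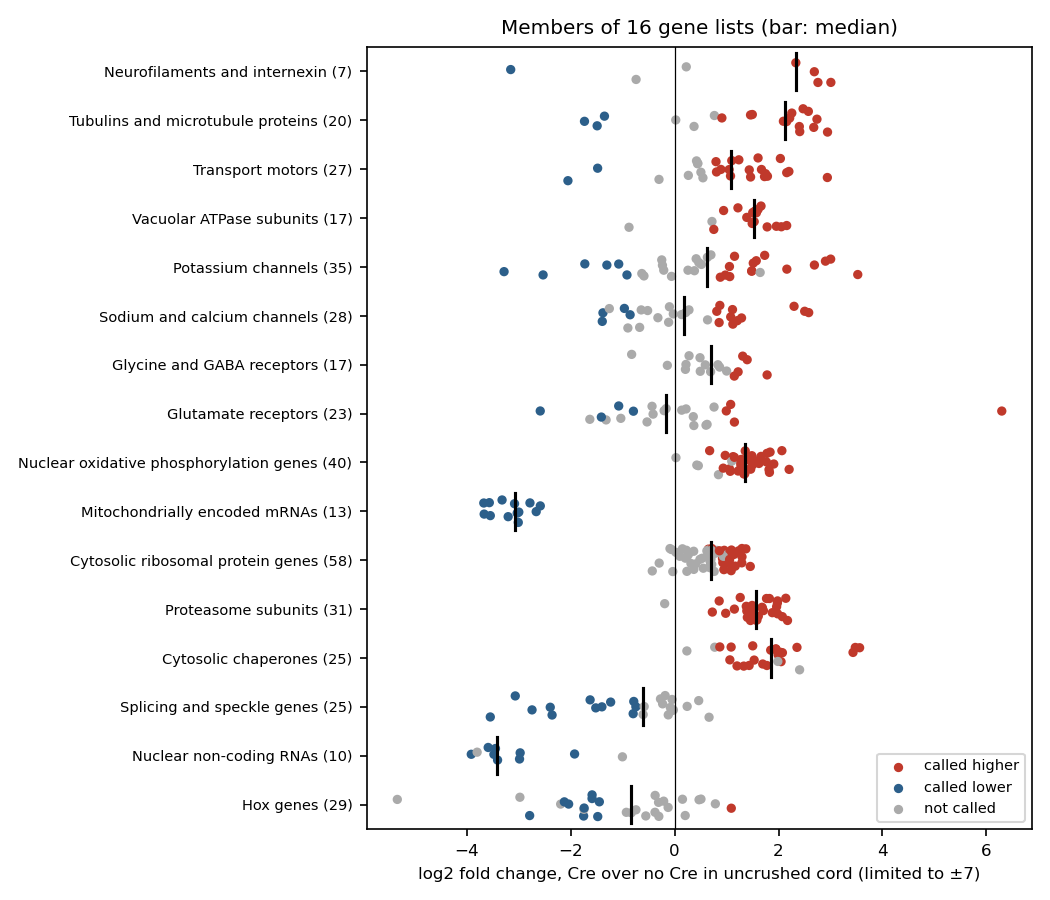
Log2 difference (Cre over no Cre, uncrushed cord) of each tested member of 16 gene lists, coloured by call, with a bar at the list's median and the number tested in brackets. Nuclear oxidative phosphorylation genes and proteasome subunits lie to the right of 0 nearly without exception, and mitochondrially encoded mRNAs all lie to the left of -2. Fitted values of genes with 0 to 3 counts in a group depend on the prior count.

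Genes mutated in motor neuron disease were among those that ribosomes of cholinergic cells held. Of 39 tested 23 were higher and 2 lower (median 0.98), and 18 of the 23 stayed higher with each library left out. Sod1, chosen after its values were seen as were Vcp and Sqstm1, was at 371 and 402 CPM with Cre and 70.6 and 88.7 CPM without (log2 2.28 ± 0.30). Vcp, a segregase that extracts ubiquitinated proteins, was at 284 and 286 CPM against 73.7 and 97.2 CPM (log2 1.73 ± 0.26), and the autophagy receptor Sqstm1 at 218 and 229 CPM against 46.4 and 67.6 CPM (log2 1.97 ± 0.28). The ribonuclease Ang was 1 of the 2 lower, with 1 count against 17, a ratio of 0.0207 with an exact 95% interval of 0.000495 to 0.132 (counting error only). Ang lost its call without animal 10, animal 3 or animal 6.

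Markers of the other cells of the cord were depleted, though not to 0. All 15 oligodendrocyte markers tested were lower (median -3.11, 14 in each left-out run): the myelin basic protein gene Mbp had a log2 difference of -3.23 ± 0.34, and Cnp, an enzyme of myelin, was at 30.7 and 27.2 CPM against 220 and 279 CPM (log2 -3.11 ± 0.28). Of 15 astrocyte markers 14 were lower (median -3.04), as in each left-out run, with the glutamate transporter Slc1a2 at 151 and 147 CPM against 1052 and 1893 CPM (log2 -3.30 ± 0.36) and S100b, at 491 and 410 CPM against 360 and 250 CPM, the 1 not called. Endothelial and pericyte markers had 14 of 15 lower (median -3.46), with Flt1 at 3.12 and 3.60 CPM against 66.3 and 36.3 CPM (log2 -3.91 ± 0.37). Microglial markers had 13 of 16 lower (median -3.25; 8 without animal 10), Schwann cell markers 6 of 9 (median -3.25), meningeal markers 7 of 10 (median -2.70) and blood markers 10 of 10 (median -2.65; 5 without animal 10, animal 3 or animal 6). Of 4 ependymal markers 2 were lower, Pltp and Dnah11, and 1 was left without animal 3 or animal 6. Of 9 oligodendrocyte precursor markers 7 were lower and Tnr was higher, a call lost without animal 3 or animal 4. The summed level of the oligodendrocyte list was 983 and 791 CPM with Cre against 8459 and 7624 CPM without, and 0 of the 15 was at 0 in a library with Cre. Microglial markers summed to 29.9 and 27.7 CPM against 162 and 187 CPM. How much of this remainder came from tagged cells was not tested.

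Interneuron markers, from neurons that are not cholinergic, were depleted less. Inhibitory markers had 9 of 14 lower and 0 higher (median -1.41), 4 without animal 10, 6 without animal 3 and 6 without animal 4. The glycine transporter Slc6a5 was at 97.4 and 80.2 CPM with Cre and 381 and 398 CPM without (log2 -2.13 ± 0.28). Excitatory markers had 9 of 15 lower and 2 higher (median -2.49; 6 lower without animal 3). The transcription factor Ebf1 had a log2 difference of -2.37 ± 0.25, and the 2 higher were Nts and Cck, at 82.4 and 65.4 CPM against 26.9 and 23.0 CPM (log2 1.57 ± 0.34). Neuron-wide genes went up: 11 of 16 were higher and 0 lower (median 1.52), 10 of them in each left-out run, with Stmn2 at 1196 and 1233 CPM against 158 and 158 CPM (log2 2.94 ± 0.33). Sensory ganglion markers summed to 7.81 and 2.92 CPM against 31.2 and 45.4 CPM, and of 6 tested Scn11a (log2 -3.75) was the 1 called lower, a call lost without animal 10, 3, 4 or 6.

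RNA that stays in the nucleus was depleted as far as glial mRNA. Of 10 nuclear non-coding RNAs 8 were lower (median -3.43), also with each library left out. Malat1 was at 6024 and 3139 CPM with Cre and 68274 and 41820 CPM without (log2 -3.59 ± 0.49), and Meg3 at 1175 and 727 CPM against 16795 and 11853 CPM (log2 -3.91 ± 0.44). Over all 959 long non-coding RNAs tested 20 were higher and 412 lower (median -1.97), beside 3063 higher and 2693 lower of 13606 nuclear protein-coding genes (median 0.08). Among splicing and nuclear speckle genes 12 of 25 were lower and 0 higher, with 8, 8 and 7 without animals 10, 3 and 4, and the median of -0.61 turned to 0.14 under scaling by library size alone. The members chosen after their values were seen were lower under every scaling tried: the nuclear protein Leng8 at 14.4 and 13.1 CPM against 157 and 165 CPM (log2 -3.55 ± 0.25), the splicing kinase Clk4 at 13.4 and 10.3 CPM against 137 and 62.0 CPM (log2 -3.07 ± 0.36), Pnisr at 68.8 and 53.1 CPM against 592 and 225 CPM (log2 -2.74 ± 0.41) and Luc7l2 at 79.4 and 59.5 CPM against 501 and 228 CPM (log2 -2.39 ± 0.36). Called nuclear protein-coding genes also differed in length, with a median of 2361 bases for the 3063 higher and 3235 bases for the 2693 lower, and 2548 for those not called.

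Of 29 Hox genes, which record position along the body axis, 1 was higher and 9 lower (median -0.83). Over all genes tested the shares were 20.6% and 21.9%. Hoxb8 was at 22.4 and 9.25 CPM with Cre and 86.6 and 43.3 CPM without (log2 -2.04 ± 0.52), a call lost without animal 3 or animal 4. Hoxd9 (log2 1.09), the 1 higher, lost its call without animal 10, 3 or 4. Hoxc10, which specifies lumbar motor neurons, was at 72.5 and 57.5 CPM against 44.8 and 31.0 CPM and was not called. The lower count was 4 without animal 3 and 5 without animal 4. Immediate early genes had 4 of 16 higher and 4 lower (median 0.57), beside 20.6% and 21.9% over all genes tested. Jun was at 94.7 and 84.2 CPM against 33.1 and 21.6 CPM (log2 1.72 ± 0.29), Dusp1 at 56.2 and 43.2 CPM against 14.4 and 11.2 CPM (log2 1.96 ± 0.32), and Fos (log2 1.78) and Klf6 (log2 0.68) were the other higher ones. The lower were Egr2 (log2 -5.35), Arc (log2 -2.04), Klf4 (log2 -2.86) and Ier5 (log2 -1.72). Jun, Dusp1 and Egr2 kept their calls with each library left out, and the other 5 did not. Without animal 10 the counts were 2 higher and 1 lower, without animal 3 they were 2 and 3, and without animal 6 they were 3 and 2.

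Levels per length are given as TPM (counts per base of effective length, set to the same total in each library). The ranking covers named nuclear genes and leaves out predicted or unnamed genes such as Gm42418, mitochondrial genes and small RNAs. The most abundant mRNA among them with Cre was Snap25, a SNARE of the presynaptic membrane. It had levels of 12177 and 16829 TPM against 1363 and 2413 TPM without. Nefm followed with levels of 10566 and 13084 TPM, then the calmodulin gene Calm2 with 8657 and 9561 TPM and Nefl with 6343 and 10150 TPM. The order of Snap25 and Nefm was the same in both animals, whereas Calm2 exceeded Nefl in animal 10 and not in animal 3. In the libraries without Cre Malat1 led the genes ranked, with levels of 28773 and 23159 TPM, against a mean of 4549 TPM with Cre. Mbp stood at 1236 and 1363 TPM without Cre and at 256 and 303 TPM with Cre. A gene's TPM falls where another RNA takes more of the library, so TPM values set side by side between libraries carry no test here.

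The same contrast was made in crushed cord, with libraries from other animals. Both contrasts came from the same fit, which shares the filter, the scaling and each gene's spread across all libraries. The overlap of their calls is thus not an independent check. In crushed cord 3286 genes (21.6%) were higher with Cre and 3235 (21.3%) lower. Of the 967 genes higher past 2-fold in uncrushed cord 918 were called higher in crushed cord, which is 94.9% of the first list and 27.9% of the second, and of the 1600 lower past 2-fold 1358 were called lower (84.9% and 42.0%), while 3 were called in the opposite direction. Chat was at 78.2 and 90.9 CPM in crushed cord with Cre (animals 35 and 52) and 5.16 and 3.83 CPM without (animals 51 and 58), Chodl at 516 and 436 CPM against 10.6 and 14.8 CPM, and Rspo2 at 44.2 and 37.4 CPM against 2.99 and 3.17 CPM. Their log2 differences in crushed cord were 4.22, 5.23 and 3.73. The difference between the crushed and the uncrushed contrast was tested in each gene. EdgeR's quasi-likelihood test called 0 genes of 15208, with 905 at an unadjusted p under 0.05; DESeq2 called 14, limma voom 0, and edgeR without a filter on low counts 87.

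The smallest unadjusted p of that test belonged to neuropeptide Y (Npy), a peptide of inhibitory interneurons and of injured sensory neurons. Npy was at 0.39 and 0.39 CPM with Cre and 4.29 and 3.47 CPM without in uncrushed cord, and at 15.7 and 7.60 CPM with Cre and 0.95 and 2.17 CPM without in crushed cord. Its log2 difference was thus -3.25 in uncrushed and 2.92 in crushed cord, 6.17 ± 0.91 apart (p 2.5376e-05, adjusted p 0.386 by edgeR, not called). Its lower call in uncrushed cord was lost by limma voom and without both animals 3 and 4. Leng8 was next among the genes named here, at -3.55 in uncrushed and -1.68 in crushed cord (1.86 ± 0.32 apart, adjusted p 0.432). Among 20 axon injury genes 6 were higher and 5 lower in uncrushed cord, beside 20.6% and 21.9% over all genes tested. Their median of -0.06 turned to 0.52 under scaling by library size alone. In crushed cord 14 were higher and 1 lower (median 1.92), beside 21.6% and 21.3% over all genes tested. Without animal 10 the lower count in uncrushed cord was 3. Lgals1, Anxa2 and S100a10, the last chosen after its values were seen, were already higher in uncrushed cord: Anxa2 at 168 and 149 CPM against 17.2 and 24.8 CPM (log2 2.90 ± 0.41) and S100a10 at 81.7 and 74.3 CPM against 7.80 and 5.88 CPM (log2 3.53 ± 0.35). The signal transducer Stat3 was at 108 and 112 CPM against 39.4 and 41.4 CPM (log2 1.44 ± 0.21). Crush goes with age here, and with a number shared by the titles of all 4 uncrushed mice, and these cannot be told apart.

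**Figure D5:**
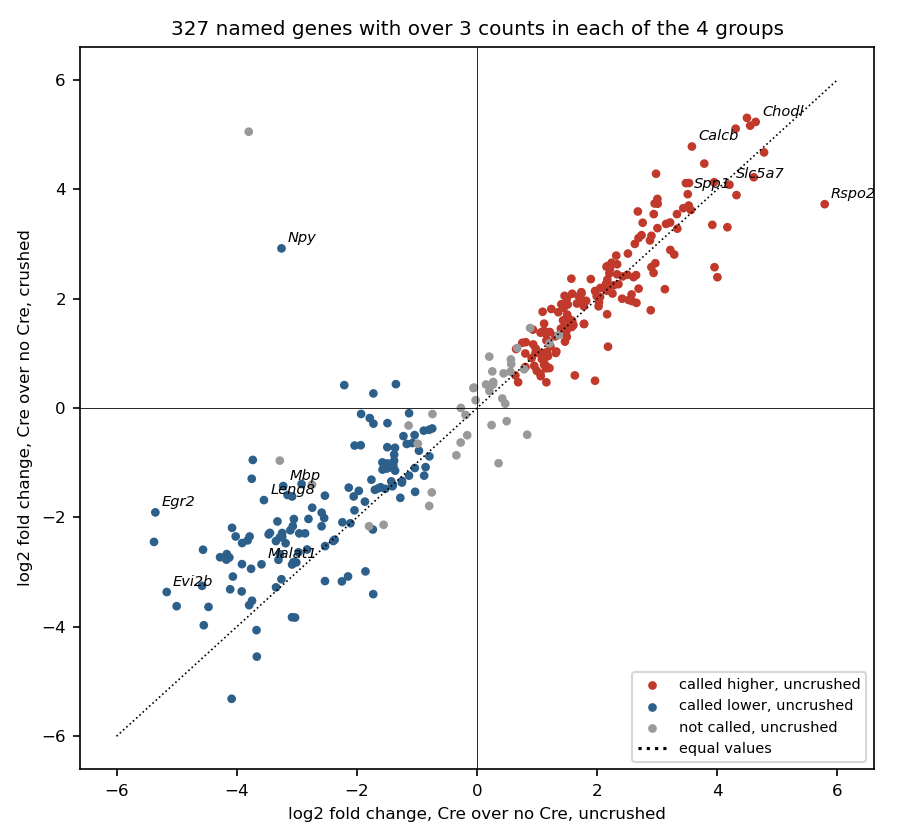
Log2 difference Cre over no Cre in crushed cord (vertical axis) against the same in uncrushed cord (horizontal axis) for the 327 named genes with over 3 counts in each of the 4 groups, coloured by the call in uncrushed cord; the dotted line marks equal values. Npy lies at -3.25 and 2.92, and Mbp and Leng8 lie above the line.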

How the data were processed

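Each sample is RNA from an anti-HA precipitate of 1 mouse's spinal cord, per the labels' protocols. Alignment with Bowtie2 2.2.0 and estimation with RSEM 1.2.12 are named in the submitters' processing notes; the genome build was not given in the sources used here. The deposited files hold expected counts per gene, which were rounded to whole numbers, and the authors' TPM and length columns, another measure, of which the length columns were used to recompute TPM. Of 38924 identifiers 96.6% matched a symbol and a GENCODE M21 gene type.

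Groups follow the titles, with 2 libraries each. The main test was edgeR 4.0.16 (R 4.3.3): filterByExpr (minimum count 10, minimum total 15), TMM factors, 1 fit over all 8 libraries with 4 residual degrees of freedom, the quasi-likelihood test and Benjamini-Hochberg adjustment, two-sided, called under 0.05. A test against a 2-fold change used glmTreat. The labels number separate animals, so p-values rest on the spread between the 2 mice of a group. That spread was pooled over all 4 groups, crushed ones included, with 1 value per gene for libraries with and without Cre. Estimated apart over all genes, the coefficient of variation between animals was 0.21 with Cre and 0.348 without. Scripts were tested on simulated data. Alternatives were DESeq2 1.42.0, limma 3.58.1 (voom), 4 other scalings, no filter, the 4 uncrushed libraries alone, left-out libraries and grouping by genotype entry; a fit of nuclear protein-coding genes without Lars2 and the left-out counts of gene lists were added after seeing the data. Tables and plots used python 3.11.15, pandas 2.3.3 and matplotlib 3.10.9. Depth was 4903056 to 9609300 expected counts per uncrushed library.

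The members and gene lists (53 lists, 1035 symbols, 4 unmatched) were chosen with earlier results of these data known. Named are Chat, Slc5a7, Chodl, Rspo2, Rpl22 and Gars; the 15 called genes with the largest difference each way with at least 10 CPM on average, non-overlapping groups and an assigned name; up to 4 members of each list by mean CPM; members behind counts of 5 or fewer; the 10 nuclear genes with the highest TPM in each group; and the 8 genes with most counts among those at 0 in the other group. Genes said to be chosen after their values were seen fall outside this rule. The TPM ranking left out predicted or unnamed genes, mitochondrial genes and small RNAs. Promoter windows came from RefSeq (GRCm38.p6). Some genes that this rule selects, and results that need them, are not reported here.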

Additional observations from a re-analysis of the deposited data

How the results depend on the processing

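The numbers of genes called moved by more than 1.5 times under several alternatives. Genes called higher numbered 3137, against 4753 with library size alone, 2045 with the total without mitochondrial transcripts, 1685 without both libraries whose genotype entry contradicts the title, 0 when grouped by that entry (206 at an unadjusted p under 0.05 by edgeR) and 2009 to 3148 with a library left out. Genes called lower numbered 3331, against 1463 with library size alone, 1614 without both libraries, 0 when grouped by genotype entry and 1793 to 2876 with a library left out. Past a 2-fold change 967 were higher, against 410 by DESeq2, 2222 with library size alone, 496 without mitochondrial transcripts, 322 by limma voom, 235 without both libraries and 400 to 1143 with a library left out. Lower past 2-fold were 1600, against 780 by DESeq2, 638 with library size alone, 700 by limma voom, 424 without both libraries and 553 to 1375 with a library left out. The difference between crushed and uncrushed cord called 0 genes, against 14 by DESeq2 and 87 without a filter. Fewer libraries or genes enter the left-out and filtered fits by construction. In the others the cause was not tested. The run without both libraries compares animals that differ in the Xist and Ddx3y pattern, and the genotype entry goes with that pattern.

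By genotype entry the log2 differences of Chat, Slc5a7 and Chodl turned to -0.35, -0.10 and -0.20. Medians of 6 lists reversed: with library size alone preganglionic markers (0.66), glutamate receptors (0.51), splicing genes (0.14) and axon injury genes (0.52), and without mitochondrial transcripts sodium and calcium channels (-0.16) and aminergic and peptide receptors (-0.12). Of the 53 list medians a further 44 moved without reversing with library size alone, 32 without mitochondrial transcripts and 16 with upper-quartile factors. Of 353 named genes 314 were called, and 191 of these kept their call and direction in every fit by title; of 20 mean TPM values 13 moved by less than the replicate spread with full lengths and 7 by more. No paired analysis was possible because the groups share no animal number. Each group had 2 animals. A count of 0 allows up to 3 counts, which corresponded to 0.292 to 1.17 CPM per library. Levels under that could be missed at this depth, although some were measured.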
